A study of Octopus bimaculoides with 6 samples.

Results

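The histone methylation writers and erasers of the California two-spot octopus, Octopus bimaculoides, were represented by 30 transcripts among the 38556 gene models with an Ocbimv identifier. They are the entries of a histone methylation list that the study annotated by similarity to known proteins, 33 in all, without its 3 KDM6A entries. Of the 30, 17 were writers and 13 were erasers, and they came from 24 Ensembl genes, 6 of which carried a pair of listed transcripts. A number after a point in a name, as in SMYD3.2, marks a further transcript annotated with the same name. The 30 were chosen for their annotation and not for their levels.

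Histone methylation is set by methyltransferases, the writers, and taken off by demethylases, the erasers, and each enzyme acts on particular lysines of the histone tail. In animals studied so far, methylation of H3K4 marks active promoters, H3K36 methylation follows transcribing polymerase, and H3K9 and H3K27 methylation mark silent chromatin. H3K27 is methylated by Polycomb repressive complex 2 (PRC2), in which EZH2 is the catalytic subunit and SUZ12 and EED are needed for its activity. Erasers fall into amine oxidases (KDM1A and KDM1B) and the larger family of Jumonji oxygenases (the KDM3, KDM4, KDM5 and KDM8 enzymes). These roles are known mainly from mammals and insects.

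RNA from wild-caught animals was measured by ribosome-depleted RNA sequencing in 6 libraries. The distal, medial and proximal sections were slices taken 1.5, 3.5 and 5.5 cm from the end of the first left arm of 1 adult male. The arm tips, also given as 1.5 cm, came from the same arm in another adult male (OB2) and in an adult female (OB9). The hatchling was 1 whole animal, labelled male, at 30 days post fertilization (dpf). Every condition was 1 library, so no difference below had a replicate check and no p-value was computed. The tips and sections differed in animal as well as position, and the hatchling also held organs that an arm lacks.

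The libraries held 3161353 to 9081923 estimated counts, of which 2812216 to 8201002 lay on Ocbimv models, and the distal section was the shallowest. The 30 members held 4661 to 10146 counts per library, or 0.124% to 0.221% of the counts on coding models. Levels are transcripts per 1000000 (TPM) recomputed over the Ocbimv models, because non-coding targets took from 39.8% to 63.5% of the deposited TPM. Intervals in brackets are 95% exact Poisson intervals of the count. A standard error (SE) beside a difference, like those intervals, covers counting error only and not how the quantifier divided reads between similar transcripts. In bulk tissue, fewer cells of a type and less RNA per cell cannot be told apart.

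Where 6 levels are listed, their order is distal, medial and proximal section, then male tip, female tip and hatchling. A difference is that of log2(TPM + 1), which understates the change of low transcripts. A member was called higher or lower where it lay outside the range of the libraries compared and differed by at least 2-fold on that scale, and was counted where it reached 1 TPM in 1 of those libraries.

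As a group the members were well expressed. Their median level was between 9.98 TPM in the hatchling and 21.5 TPM in the female tip, against 3.79 to 6.59 TPM for all coding models, and 22 to 25 of the 30 exceeded their library's median. The median rank of a member was at percentile 75.3 of all coding models. Across the 6 libraries the members spanned a median of 1.23 on the log2 scale, against 1.59 for the 33513 models reaching 1 TPM. The members' models were also longer, with a median of 3470 bases against 1059, and longer models are counted with less error. The hatchling held the lowest level of 15 members, where it was lowest for 25.9% of all models, and the female tip held the highest level of 16, where it was highest for 34.2% of all models. The place of the female tip depended on the scaling. With the TPM as deposited SETDB1, KDM1B, KDM1A, KDM4A and KDM4B, among others, were highest in the medial section instead.

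**Figure D1:**
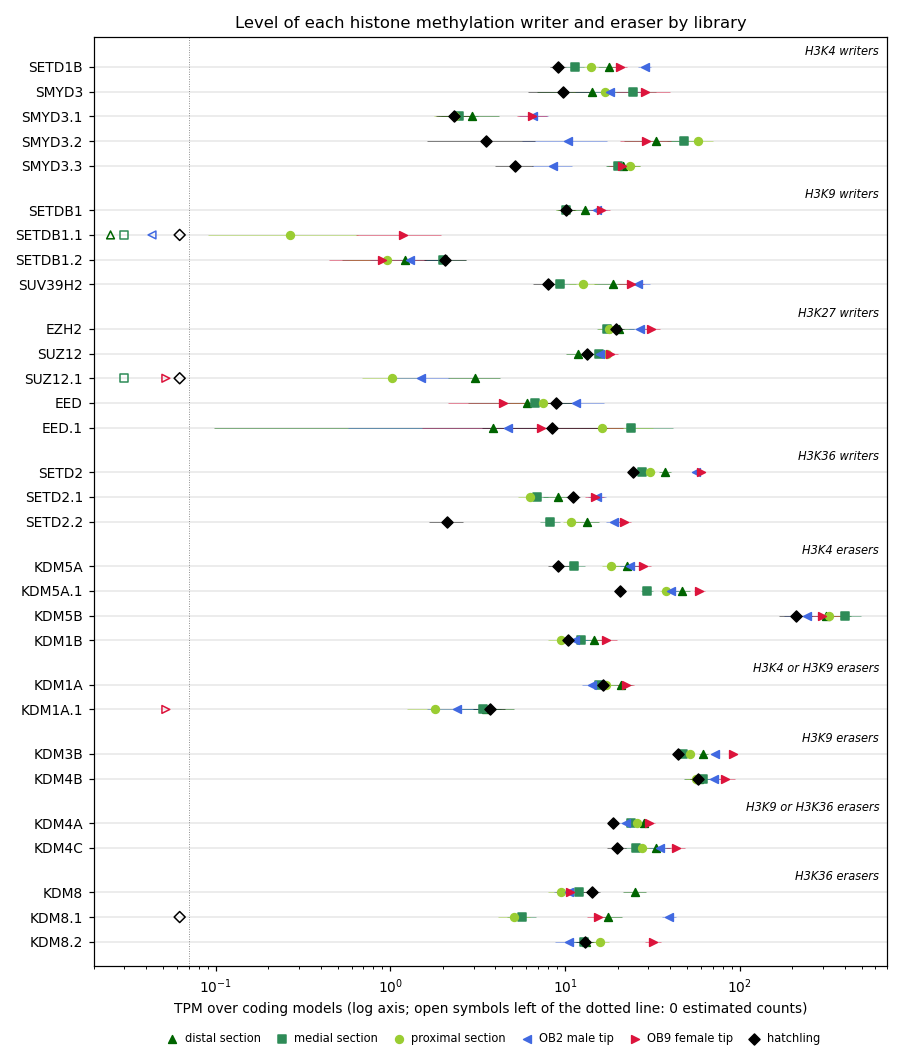
TPM over coding models (log axis) of the 30 members by library; bars are 95% exact Poisson intervals of the count, and open symbols left of the dotted line mark libraries with 0 estimated counts. KDM5B, at 210.4 to 404.1 TPM, stands apart from every other member, and the hatchling lies lowest for all 5 listed H3K4 writers (4 of them with TMM scaling).

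The H3K4 writers were SETD1B, the catalytic subunit of a COMPASS-type complex that trimethylates H3K4, and 4 models annotated as SMYD3, a SET and MYND domain methyltransferase. SETD1B, a model of 5349 bases, was at 17.8, 11.4, 14.1, 28.6, 20.6 and 9.13 TPM. It was lowest in the hatchling and highest in the male tip, and the intervals of those libraries, 8.21 to 10.1 and 26.2 to 31.0 TPM, did not overlap. The SMYD3 models did not follow one another.

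SMYD3.2 (Ocbimv22032554m) was the most abundant H3K4 writer on average, at 33.4, 47.8, 57.7, 10.4, 29.3 and 3.55 TPM. It was high in the sections of the one arm, lower in the male tip and lowest in the hatchling. SMYD3.2 is a short model of 545 bases, so these levels rest on 26, 87, 101, 14, 38 and 9 counts. SMYD3.3, of 2234 bases, was at 21.6, 20.2, 23.5, 8.54, 21.2 and 5.15 TPM, and so was nearly level in the 3 sections and the female tip. Only the male tip and the hatchling were below that, and their intervals (6.49 to 11.0 and 3.98 to 6.57 TPM) overlapped each other by a small margin.

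SMYD3.1, the longest of the SMYD3 models at 5178 bases, was the least abundant of them. Its levels were 2.93, 2.46, 2.36, 6.59, 6.49 and 2.32 TPM, higher in both tips than in the other 4 libraries, whose intervals all overlapped. SMYD3 itself, a model of 465 bases with 10 to 39 counts, ranged from 9.73 TPM in the hatchling to 28.7 TPM in the female tip. Summed over the 4 models, SMYD3 levels were 72.3, 94.8, 100.5, 43.6, 85.7 and 20.8 TPM. The hatchling was below every arm library for each of the 4, though its interval overlapped that of the nearest arm library each time, and SMYD3.1 was not below the range with TMM scaling.

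**Figure D2:**
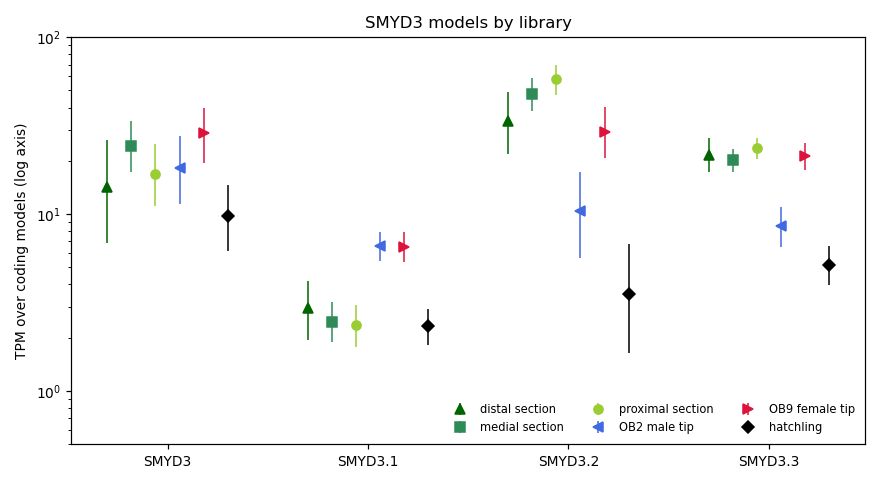
TPM (log axis) of the 4 SMYD3 models in each library, with 95% exact Poisson intervals of the count. SMYD3.1 is higher in both arm tips than elsewhere, while SMYD3.2 and SMYD3.3 are lowest in the hatchling and next lowest in the male tip.

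The H3K9 writers were SETDB1 and SUV39H2, both of which trimethylate H3K9 in silent chromatin. SUV39H2 (Ocbimv22037503m) was the most abundant on average, at 18.9, 9.40, 12.7, 26.3, 23.9 and 8.02 TPM. Both tips stood highest, the distal section was next, and the medial section and the hatchling had overlapping intervals of 7.52 to 11.6 and 6.53 to 9.69 TPM. SETDB1 varied less, from 10.1 TPM in the medial and proximal sections to 16.0 TPM in the female tip.

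SETDB1.1 and SETDB1.2, a pair of transcripts of another gene model, were near the limit of detection. SETDB1.2 had 9 to 54 counts and levels of 1.21, 2.01, 0.954, 1.30, 0.898 and 2.06 TPM. SETDB1.1 had no count in the distal and medial sections, the male tip and the hatchling, about 5 counts (0.266 TPM) in the proximal section and 14 counts (1.19 TPM) in the female tip. A count of 0 allowed up to 0.118 TPM in the hatchling and up to 0.397 TPM in the distal section, taking 3 counts per library as the limit. In RefSeq's annotation of the ASM119413v2 assembly, the gene matched to SETDB1 (LOC106873585) and that matched to SETDB1.1 and SETDB1.2 (LOC106873583) neighbour and overlap each other, so reads could be divided between these models.

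Among the PRC2 components, EZH2 was at 20.3, 17.4, 17.8, 26.8, 31.1 and 19.5 TPM. It was highest in both tips, and the other 4 libraries had overlapping intervals. With the TPM as deposited the medial section (10.5 TPM) was above the male tip (10.3 TPM). SUZ12 was at 11.9, 15.7, 17.4, 15.8, 18.1 and 13.4 TPM, which made it one of the steadiest members. Its second transcript SUZ12.1 was detected in the distal section (3.07 TPM), the proximal section (1.02 TPM) and the male tip (1.50 TPM) and had 0 counts in the medial section, the female tip and the hatchling. Those counts of 0 allowed at most 0.103, 0.160 and 0.0759 TPM.

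EED, of 768 bases, was at 6.09, 6.73, 7.48, 11.5, 4.44 and 8.85 TPM from 9 to 44 counts. EED.1, the shortest PRC2 model at 268 bases, was at 3.88, 23.9, 16.2, 4.72, 7.31 and 8.39 TPM from only 1, 12, 8, 2, 3 and 7 counts. The interval of EED.1 in the distal section ran from 0.0984 to 21.6 TPM and overlapped the interval of every other library, so no order of its levels could be read.

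The H3K36 writers were SETD2, the enzyme that trimethylates H3K36 behind RNA polymerase II, and SETD2.1 and SETD2.2, which share another gene model. SETD2 was at 37.6, 27.5, 30.9, 56.4, 60.4 and 24.6 TPM and was the most abundant writer on average. With 603 to 1542 counts it was also the best measured writer, and both tips stood above all other libraries. SETD2.1 was at 9.12, 6.95, 6.31, 15.3, 14.8 and 11.1 TPM. For SETD2.2 (Ocbimv22035450m) the levels were 13.3, 8.26, 10.9, 19.0, 21.8 and 2.10 TPM, so the hatchling was lowest for SETD2.2 but not for SETD2.1.

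In RefSeq the gene matched to SETD2 (LOC106884161, given there as a long non-coding RNA) is the direct neighbour of the gene matched to SETD2.1 and SETD2.2 (LOC106877592). Whether the 3 models are parts of 1 gene was not tested. Their summed level was 60.0, 42.7, 48.2, 90.8, 96.9 and 37.8 TPM.

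Among the H3K4 erasers, the Jumonji enzymes KDM5A and KDM5B and the amine oxidase KDM1B, KDM5B (Ocbimv22022160m) had by far the highest level, at 313.4, 404.1, 325.5, 243.9, 296.1 and 210.4 TPM. This model is 195 bases long, and after Kallisto's correction its effective length was only 38.9 to 53.5 bases, so 37 to 88 counts gave those levels. The interval was 220.7 to 432.0 TPM in the distal section, overlapping every other library, and the hatchling's interval of 167.1 to 261.5 TPM lay below that of the medial section (324.1 to 497.9 TPM). KDM5A was at 22.7, 11.3, 18.3, 23.5, 27.9 and 9.18 TPM and its second transcript KDM5A.1 at 47.0, 29.5, 37.7, 40.5, 58.9 and 20.7 TPM. Both transcripts were lowest in the hatchling, second lowest in the medial section and highest in the female tip. KDM1B ranged from 9.50 TPM in the proximal section to 17.2 TPM in the female tip.

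KDM1A, the amine oxidase LSD1, which is listed for both H3K4 and H3K9, was at 21.0, 15.6, 17.2, 14.3, 22.3 and 16.6 TPM. The other transcript of its gene, KDM1A.1, was at 3.55, 3.39, 1.81, 2.40, 0 and 3.70 TPM. The female tip, with no count, was the exception, and its limit of 3 counts corresponded to 0.255 TPM.

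The H3K9 erasers KDM3B, a demethylase of mono- and dimethylated H3K9, and KDM4B, which acts on trimethylated H3K9, were the most abundant erasers after KDM5B. KDM3B had 1056 to 2572 counts, more than any other member in every library, and was at 61.9, 47.6, 51.7, 71.9, 92.2 and 44.5 TPM. KDM4B was at 58.9, 61.7, 56.1, 71.3, 83.0 and 58.0 TPM. The female tip was highest for both, and for KDM3B its interval (88.6 to 96.0 TPM) was above that of every other library. With the TPM as deposited KDM4B was highest in the medial section, at 37.2 TPM against 30.3 TPM in the female tip. KDM4C, listed for H3K9 and H3K36, was at 33.2, 25.5, 27.6, 34.9, 43.2 and 19.8 TPM, and KDM4A, listed for the same marks, ranged from 18.8 TPM in the hatchling to 30.3 TPM in the female tip.

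KDM8, a Jumonji protein first described as an eraser of H3K36 dimethylation, was represented by 3 transcripts of 2 gene models. KDM8 was at 25.1, 12.0, 9.50, 10.5, 10.7 and 14.2 TPM, and the distal section was above all other libraries. KDM8.2 (Ocbimv22032520m) was at 13.2, 12.9, 15.8, 10.5, 32.0 and 13.0 TPM, with the female tip alone above the rest. KDM8.1 (Ocbimv22032519m), from the same gene model as KDM8.2, was at 17.7, 5.66, 5.13, 39.5, 15.5 and 0 TPM, and so had no estimated count in the deepest library. That 0 allowed at most 0.117 TPM. The measured level was 43.8-fold that limit in the lowest arm library and 337.3-fold in the male tip, leaving aside the counting error of those levels.

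Summed over all marks, the listed erasers exceeded the listed writers in every library. The writer sum leaves out the 35 further methyltransferase transcripts described below. Some of those were abundant, such as KMT2C (74.5 TPM) and DOT1L (68.4 TPM) in the distal section. These sums therefore do not compare all writers with all erasers. The 17 writers added up to 228.7, 234.2, 246.7, 266.4, 306.2 and 138.2 TPM, with counting errors of 4.62 to 10.3 TPM. The 13 erasers added up to 660.4, 665.7, 601.8, 596.9, 729.3 and 439.2 TPM, but the short KDM5B model alone made up 40.6% to 60.7% of that. The ratio of erasers to writers was 2.24 to 3.18 with KDM5B and 1.12 to 1.66 without it, an alternative chosen after the data were seen. Without KDM5B the ratio was 1.52, 1.12, 1.12, 1.33, 1.41 and 1.66, lowest in the medial and proximal sections and highest in the hatchling.

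Of the 4 groups of writers, the H3K4 writers showed the widest spread, with sums of 90.2, 106.3, 114.6, 72.2, 106.3 and 29.9 TPM. The hatchling's 29.9 ± 2.50 TPM (counting SD) was below the lowest arm library, the male tip at 72.2 ± 5.08 TPM. The H3K36 writers summed to 37.8 TPM in the hatchling, 42.7 to 60.0 TPM in the sections and 90.8 and 96.9 TPM in the tips. The H3K27 writers were the steadiest of these 4 groups, at 45.3 to 63.8 TPM in all 6 libraries, and the H3K9 writers ran from 20.3 TPM in the hatchling to 42.9 TPM in the male tip. The KDM8 transcripts, the erasers listed for H3K36 and no other mark, summed to 56.1, 30.6, 30.5, 60.4, 58.2 and 27.2 TPM, below the H3K36 writers in each library. In the distal section the gap was small beside the counting SD (56.1 ± 2.80 against 60.0 ± 2.07 TPM). KDM4A and KDM4C, listed for both H3K9 and H3K36, are not in that sum, and the members held no H3K27 eraser because KDM6A was left out. The H3K9 erasers were at 102.5 to 120.7 TPM outside the tips and at 143.2 and 175.2 TPM in the male and female tip. With the TPM as deposited the tips did not stand apart. KDM4B was then at 37.2 TPM in the medial section and at 27.4 and 30.3 TPM in the male and female tip. KDM3B was at 28.7 TPM in the medial section and at 27.6 and 33.6 TPM in the tips.

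**Figure D3:**
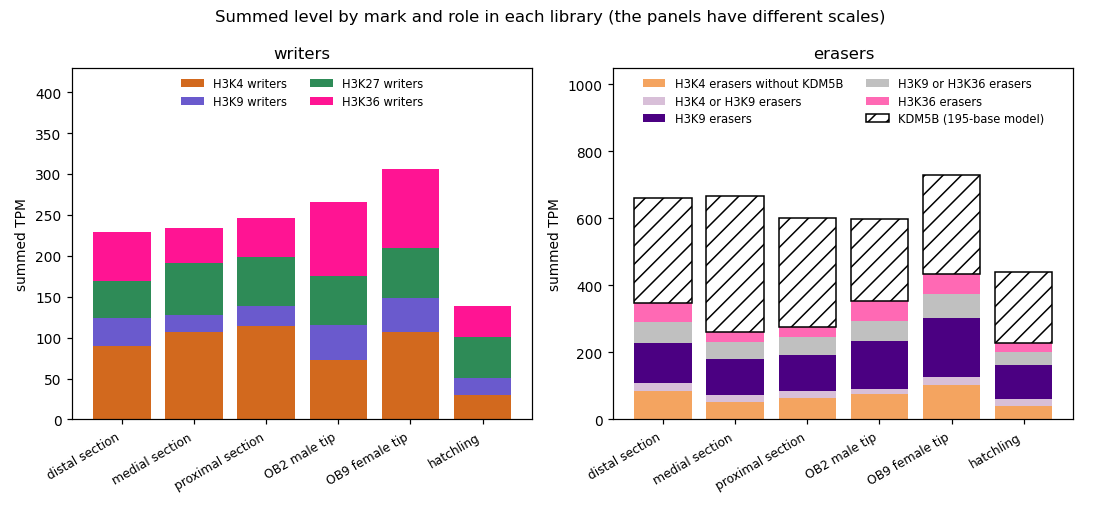
Summed TPM of the writers (left) and erasers (right) by the mark they are listed for, in each library, on different vertical scales; the hatched part is KDM5B. The hatchling has the smallest sum in both panels (138.2 and 439.2 TPM), and KDM5B makes up 40.6% to 60.7% of the eraser sum.

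The first comparison asked how the whole hatchling differed from the 5 adult arm libraries. No member was called higher and 6 of 30 were called lower: the H3K4 writers SMYD3.2 and SMYD3.3, the H3K36 writer SETD2.2, the H3K9 writer SUV39H2, the H3K4 eraser KDM5A and the H3K36 eraser KDM8.1. Among all 33513 models tested, 10.8% were called lower and 7.79% higher. Of any size, 15 members (50.0%) were below all 5 arm libraries, where 25.9% of all models were, and 2 members (6.67%), SETDB1.2 and KDM1A.1, were above all of them, against 15.1% of all models. Both were above by less than counting error (2.06 against 2.01 TPM in the medial section and 3.70 against 3.55 TPM in the distal section), and with the TPM as deposited no member was. The 5 arm libraries include 3 sections of 1 arm and so are not independent.

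The median difference of the members was -0.47 on the log2 scale, against -0.29 for all models, and 17 of the 30 were below that median of all. The 6 members called lower are placed here relative to the median of all models. KDM8.1 was 3.51 below it (difference -3.79, SE 0.11) and SMYD3.2 was 2.53 below it (difference -2.82, SE 0.39). SETD2.2 (difference -2.26, SE 0.12) and SMYD3.3 (difference -1.63, SE 0.16) followed. KDM5A (difference -1.04, SE 0.10) and SUV39H2 (difference -1.0, SE 0.14) were at the threshold. Neither call held without the distal section, without the male tip or without the female tip, where KDM5A was at -0.99, -0.98 and -0.92 and SUV39H2 at -0.97, -0.85 and -0.89, or with TMM scaling, and SUV39H2 was also not called without the 10 most abundant models of each library (-0.97).

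Below all arm libraries but short of 2-fold were SETD1B (difference -0.88), SMYD3 (-0.96), SMYD3.1 (-0.54), SETD2 (-0.70), KDM5A.1 (-0.98), KDM5B (-0.57), KDM4C (-0.68), KDM3B (-0.50) and KDM4A (-0.44). Leaving out 1 arm library brought 3 of these past 2-fold: SETD1B without the medial section (-1.03), KDM5A.1 without the medial (-1.10) or proximal section (-1.01) and SMYD3 without the distal (-1.07) or proximal section (-1.02). All 5 listed H3K4 writers, SETD1B and the SMYD3 models, were thus below the arm range. Other detected transcripts listed for H3K4, among the 35 described below, were mixed. KMT2A, KMT2C, KMT2C.1, KMT2C.2 and KMT2E were also below the range. ASH2L was above it (9.74 against 6.21 to 7.73 TPM), and KMT2A.1, KMT2E.1, SETD3 and PRDM9.1 were within it. With TMM scaling 4 of the 5 listed writers, all but SMYD3.1, were still below the range. With that scaling 11 of 29 members were below the range (20% of all models), and with the TPM as deposited 19 of 29 (39.2% of all models). For the amine oxidases KDM1A and KDM1B and the PRC2 subunits EZH2, SUZ12 and EED the hatchling lay within the arm range, except that EZH2 and KDM1B were below it with the TPM as deposited. KDM8.2, which shares a gene model with KDM8.1, was also within the range. Summed, KDM8.1 and KDM8.2 were at 31.0, 18.6, 21.0, 50.0, 47.4 and 13.0 TPM, and this sum was lower in the hatchling by 2.30-fold.

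The second comparison set the distal section against the medial and proximal sections of the same arm. Of 29 members tested, 3 (10.3%) were called higher, KDM8, KDM8.1 and SUZ12.1, and 1 (3.45%), EED.1, was called lower. Of the 30182 models tested, 14.2% were called higher and 6.90% lower. The members' median difference was 0.31 and that of all models 0.22.

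KDM8 was higher by 1.16 (SE 0.13), and its distal interval of 21.4 to 29.2 TPM was clear of those of the medial (10.4 to 13.8 TPM) and proximal (8.03 to 11.2 TPM) sections. KDM8.1 was higher by 1.55 (SE 0.15). KDM8.2, its partner, differed by only -0.11 (SE 0.14). SUZ12.1 was higher by 1.52 (SE 0.20), but the medial section had 0 counts. The measured distal level was 29.7-fold the medial limit of 3 counts, leaving aside its own counting error. Its difference was 1.01 without the medial section and 2.02 without the proximal section.

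None of these 3 higher calls held with the TPM as deposited, where the differences were 0.53, 0.89 and 0.77, and KDM8 was not called with TMM scaling. The lower call of EED.1 (difference -2.08, SE 1.19) rested on 1 count in the distal section and is within counting error. The 3 nerve markers measured, complexin and a pair of synaptotagmin-1 models, were each highest in the distal section. They summed to 656.5, 240.5, 224.7, 281.5, 274.5 and 330.4 TPM. No other nerve marker was used, so a change in nerve cells as such was not measured. None of the 3 was at 0 in any library, and their part in the differences was not tested.

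The third comparison set both arm tips against the medial and proximal sections. Of 30 members, 5 (16.7%) were called higher, SMYD3.1, SUV39H2, SETD2.1, SETD2.2 and KDM8.1, and 2 (6.67%), SMYD3.2 and EED.1, were called lower. All models tested, 32266 of them, gave 24.7% higher and 6.89% lower. The median difference was 0.36 for the members and 0.49 for all models.

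KDM8.1 had the widest difference, 2.02 (SE 0.10), or 1.53 above the median of all models, and its levels of 39.5 and 15.5 TPM in the tips were clear of 5.66 and 5.13 TPM in the sections. It was 2.66 without the female tip and 1.37 without the male tip. SMYD3.1 (1.14, SE 0.13), SUV39H2 (1.13, SE 0.12), SETD2.1 (1.08, SE 0.09) and SETD2.2 (1.02, SE 0.08) were 0.53 to 0.66 above the median of all models. These 4 were not called with the TPM as deposited or with TMM scaling, though their direction was the same. SETD2.2 was also not called without the 10 most abundant models of each library (0.99), without the female tip (0.93) or without the medial section (0.84), and SUV39H2 not without the medial section (0.93).

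The lower call of SMYD3.2 (-1.53, SE 0.23) came with unequal tips, 10.4 TPM in the male and 29.3 TPM in the female, and was not met without the male tip (-0.82). EED.1 was lower by 1.59 on the log2 scale, with 2 and 3 counts in the tips. SETD2 (0.98, SE 0.04), SETD1B (0.88, SE 0.07) and KDM5A (0.79, SE 0.09) were above both sections in both tips, short of 2-fold. Without the proximal section these 3 were called higher as well (1.06, 1.02 and 1.11), which raised the count from 5 to 8 of 30, where 26.3% of all models were called higher. Without the medial section the count was 3, where 25.8% of all models were. Without the male tip KDM8.2 (1.11) and SETD2 (1.02) were called higher and KDM1A.1 lower (-1.81), and without the female tip SETD1B was higher (1.11) and SMYD3.3 lower (-1.26). KDM1A.1 was also called lower without the proximal section (-1.25).

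The distal section and the tips are from different animals, and both are given as 1.5 cm from the arm end. The paper describes the distal section as lying further out than the tips, so their relative position is not settled here. Both comparisons used the same medial and proximal libraries. Set side by side, KDM8.1 differed by 1.55 in the distal section and 2.02 in the tips, KDM8 by 1.16 and -0.01, SUV39H2 by 0.74 and 1.13, and SMYD3.1 by 0.20 and 1.14. KDM8 in the distal section (25.1 TPM) was thus unlike KDM8 in either tip (10.5 and 10.7 TPM).

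**Figure D4:**
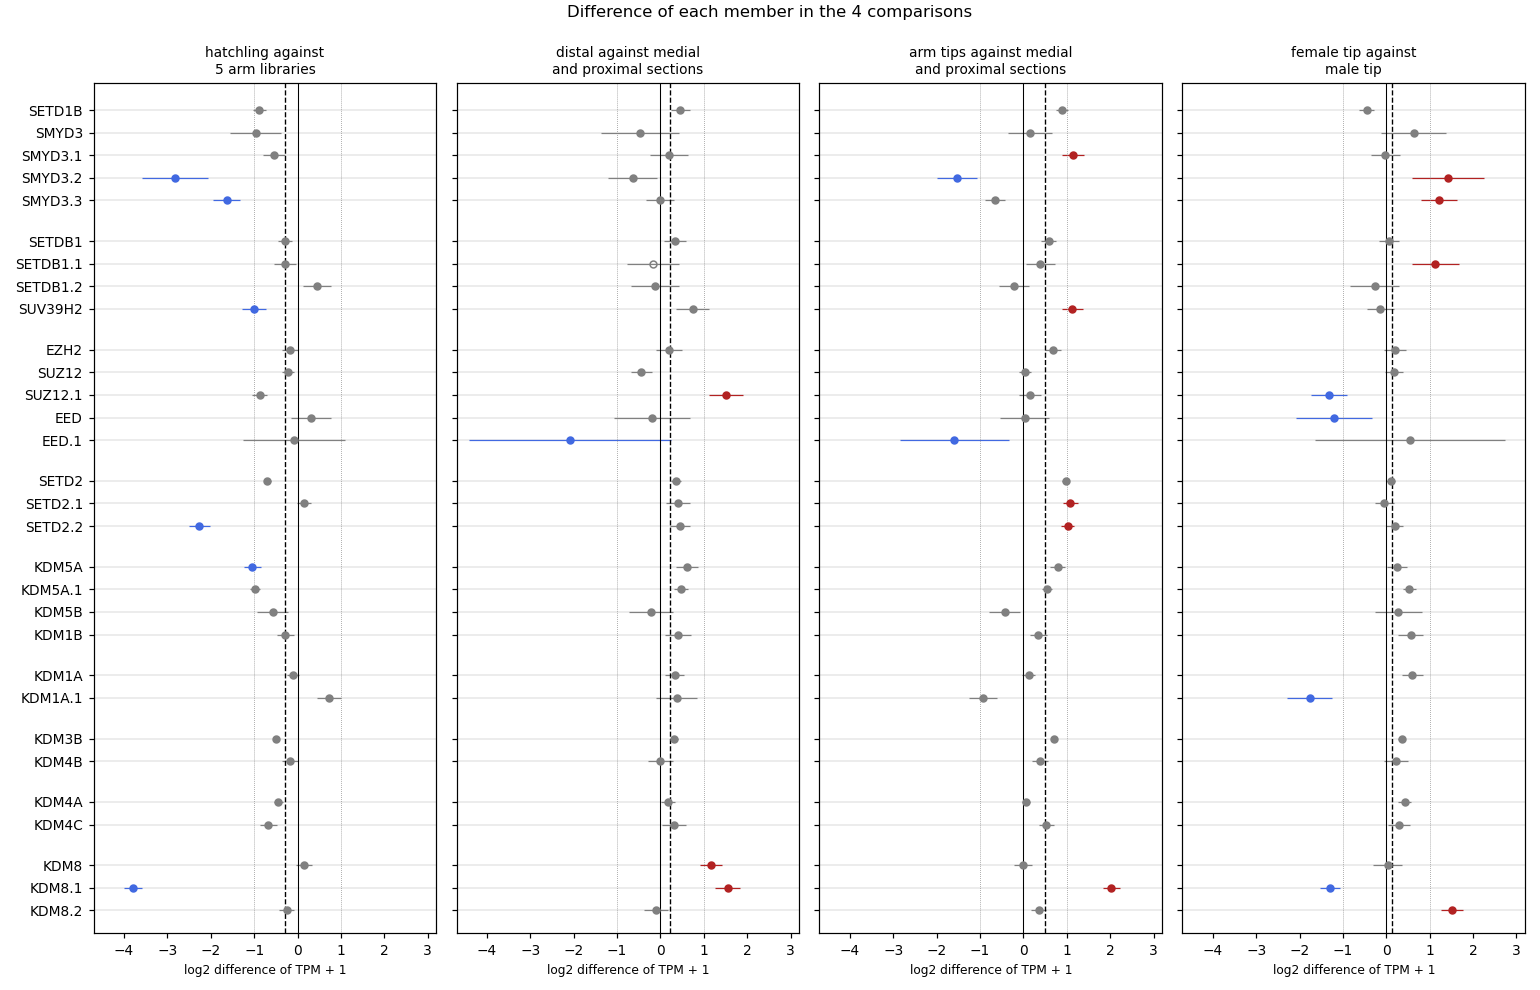
Difference of log2(TPM + 1) of each member in the 4 comparisons, with 95% counting intervals; red and blue mark members called higher and lower, the dashed line is the median of all models tested and dotted lines mark 2-fold. The open symbol is SETDB1.1, which was not tested in the distal comparison; the 3 higher calls for the distal section, and those of SMYD3.1, SUV39H2, SETD2.1 and SETD2.2 in the tips, are not met with the TPM as deposited.

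The last comparison set the female tip against the male tip, 1 animal of each sex, and so compares those animals and not the sexes. Of 30 members, 4 (13.3%) were called higher in the female tip, SMYD3.2, SMYD3.3, SETDB1.1 and KDM8.2, and 4 (13.3%) were called lower, SUZ12.1, EED, KDM1A.1 and KDM8.1. The 31289 models tested gave 11.7% higher and 7.59% lower. The median differences were 0.21 for the members and 0.14 for all models. With the TPM as deposited SETDB1.1 (0.52), SUZ12.1 (-0.66) and KDM1A.1 (-0.94) were not called, and SETDB1.1 was also not called with TMM scaling (0.99).

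SMYD3.2 was 2.83-fold higher in the female tip (95% interval of the ratio of counts 1.50 to 5.65) and SMYD3.3 was 2.48-fold higher (1.81 to 3.44). SETD1B went the other way, with a female to male ratio of 0.721 (0.632 to 0.825). EED had a ratio of 0.385 (0.166 to 0.820) from 10 and 27 counts. For 16 of the 30 members the interval of the ratio excluded 1, which says only that the libraries differed by more than counting error. The share of all models with such an interval was not computed, so the count cannot be read as a trait of the members.

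KDM8.1 and KDM8.2 went in opposite directions between the tips. The ratio of the female to the male tip was 0.392 (0.329 to 0.466) for KDM8.1 and 3.05 (2.50 to 3.75) for KDM8.2, while their sum was 47.4 and 50.0 TPM. SUZ12.1, KDM1A.1 and SETDB1.1 were transcripts at 0 in 1 tip. For SUZ12.1 and KDM1A.1, the measured level in the male tip was 9.38-fold and 9.44-fold the limit of 3 counts in the female tip. For SETDB1.1, the measured level in the female tip was 5.01-fold that limit in the male tip. These folds leave aside the counting error of the measured levels. With that error included, the interval of the female to male ratio had an upper end of 0.138 for SUZ12.1 and for KDM1A.1. Its lower end was 3.49 for SETDB1.1. The sums over the transcripts of those genes were 18.1 and 17.4 TPM for SUZ12 and 22.3 and 16.8 TPM for KDM1A.

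Calls in several members therefore lay in the division of reads between a pair of transcripts of one gene. KDM8.2 took 43.1%, 69.9%, 76.0%, 21.3%, 67.8% of the counts of its pair in the arm libraries and all of them in the hatchling, and the Wilson 95% intervals of the male tip (18.3% to 24.7%) and the female tip (63.9% to 71.5%) were far apart. SETD2.2 took 58.5%, 53.5%, 62.6%, 54.4%, 58.6% and 15.5% of its pair. The 5 arm libraries lay between 53.5% and 62.6%, and the hatchling, with an interval of 12.6% to 18.8%, was outside them. The share of KDM5A.1 was steady by comparison, from 67.1% to 75.5% in all 6 libraries.

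SUZ12.1 took 20.2%, 0%, 5.58%, 8.70%, 0% and 0% of its pair, and KDM1A.1 took 12.5%, 15.7%, 8.31%, 12.7%, 0% and 16.1%. A share of 0 allowed an upper bound of 0.716% for SUZ12.1 in the hatchling and 1.24% for KDM1A.1 in the female tip. These intervals take the estimated counts as observed, although they were assigned by an algorithm to models of one gene. With the transcripts of each gene summed, the 24 genes gave 5 lower calls in the hatchling, 1 higher and 1 lower in the distal section, 4 higher and 2 lower in the tips, and 2 higher and 1 lower in the female against the male tip. Sums over all other genes were not made, so these counts have no share of all genes beside them.

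**Figure D5:**
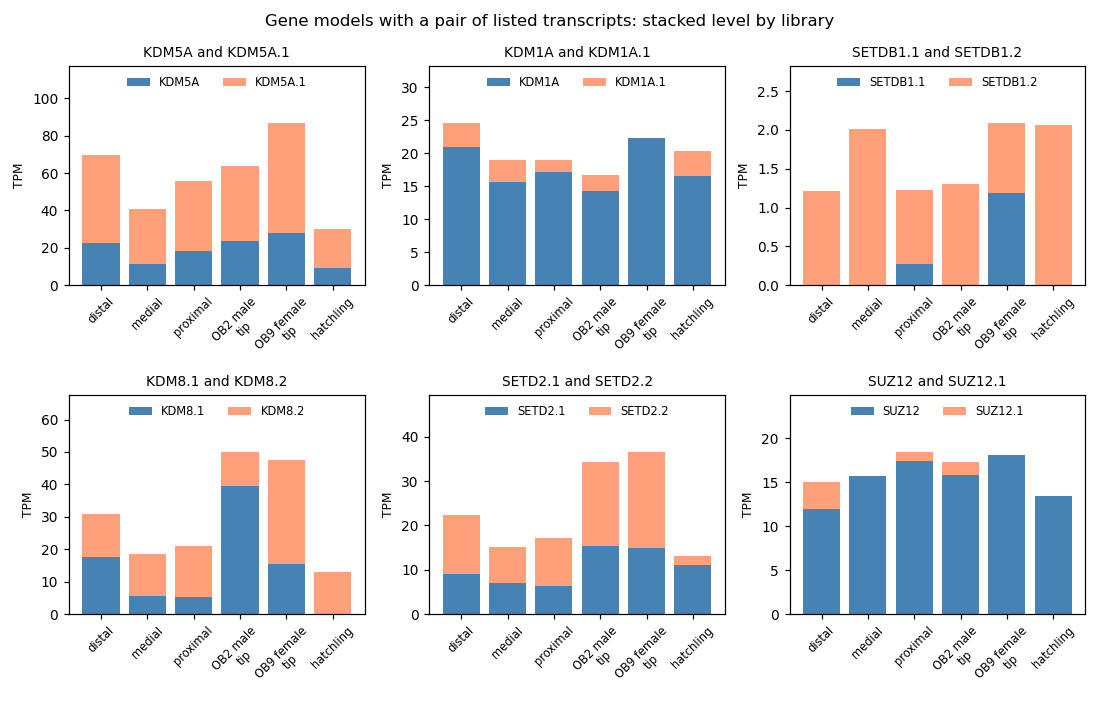
TPM of the 6 gene models that carry a pair of listed transcripts, stacked by library (the vertical scales differ). KDM8.1 is missing from the hatchling and makes up most of the male tip's level, and SETD2.2 holds 15.5% of the counts of its pair in the hatchling against 53.5% to 62.6% in the arm libraries.

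Another 35 histone methyltransferase transcripts, among them enzymes for H3K4, H3K9, H3K36, H3K79 and H4K20 and without the SETMAR family, served as a list of related genes. In the hatchling comparison, 1 of the 33 tested (3.03%) was called higher and 5 (15.2%) lower, against 7.79% and 10.8% of all models. The median difference of the list was -0.58. In the distal section, 4 of 31 (12.9%) were higher and 5 (16.1%) lower (median 0.27), against 14.2% and 6.90% of all models. In the female against the male tip 1 of 32 (3.12%) was higher and 5 (15.6%) lower (median 0.05), against 11.7% and 7.59% of all models. In the arm tips, 15 of 33 (45.5%) were called higher and 0 lower, against 24.7% and 6.89% of all models. The median of the list was 0.86 beside 0.36 for the members and 0.49 for all models. The count was 8 of 32 with TMM scaling, where 15.1% of all models were called higher, and 3 of 29 with the TPM as deposited, where 8.24% were, while the median of this list was above that of all models each time.

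Over the 30 members, Spearman's correlation between pairs of arm libraries was 0.593 to 0.946, and between the hatchling and an arm library 0.695 to 0.771. Over the 33513 models reaching 1 TPM it was 0.799 to 0.906 and 0.719 to 0.825. These are descriptions of the order of levels across transcripts, some of which share a gene model. The same models, of the same lengths, enter every library.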

How the data were processed

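Total RNA was depleted of ribosomal RNA and sequenced as paired-end reads. Per the methods, the authors trimmed reads with Trimmomatic 0.36 after FastQC 0.11.5 (and the hatchling's also with fastp, so processing and stage cannot be told apart there) and quantified them with Kallisto, with bias correction. The deposited files give an estimated count, an effective length and the authors' TPM for 40327 targets. TPM was recomputed here from the estimated counts and effective lengths of the 38556 Ocbimv targets. Groups were taken from the labels, with 1 library each. All 30 members could be named. Levels in every library were given for the highest member of each function entry, for members called, at 0 counts or sharing a gene, and the others by range. Estimated counts under 0.5 were taken as 0. The members, lists and rules were chosen with earlier results of these data known. Alternatives were the deposited TPM, TMM factors from edgeR 4.0.16 on rounded estimated counts, other pseudocounts, minimums and fold thresholds, sums per gene, leaving out libraries and leaving out the 10 most abundant models of each library. The calling code was tested on simulated data. Of the members, 17 matched RefSeq genes (ASM119413v2), used for names and neighbours only. No sequence was used here, and markers of muscle, eye, skin and dividing cells were not used here.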

Additional observations from a re-analysis of the deposited data

How the results depend on the processing

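The median of all models moved with the scaling. With the TPM as deposited it was -0.42, -0.30, -0.01 and 0.07 in the hatchling, distal, tip and female-against-male comparisons, and with TMM scaling -0.09, 0.05, 0.20 and 0.05. The members' median moved with it. With the deposited TPM it reversed to -0.24 in the distal comparison and to -0.19 in the tips, and with TMM scaling it was -0.25 in the hatchling, 0.13 in the distal comparison and 0.03 in the tips. No difference of a called member reversed under any alternative run.

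Counts of called members moved as follows, each with the share of all models called in brackets. In the hatchling 9 of 29 members were lower with the deposited TPM (13.5%) and 4 of 29 with TMM scaling (6.71%). Without the 10 most abundant models of each library 5 of 30 were lower there (10.2%). With the deposited TPM, 0 members were higher (4.30%) and 2 lower (11.1%) in the distal comparison, 1 higher (8.24%) and 4 lower (14%) in the tips and 2 lower (5.56%) in the female tip; TMM scaling left 1 higher in the tips (15.1%). At least 20 estimated counts left 0 lower in the distal comparison (3.77%) and 1 lower in the tips (8.93%). A pseudocount of 0.1 gave 1 higher (9.25%) and 8 lower (14.2%) in the hatchling. A 1.5-fold threshold gave 1 higher (12.1%) and 11 lower (20.9%) in the hatchling, 5 higher (27.7%) and 2 lower (11.9%) in the distal comparison and 10 higher in the tips (39.4%). A 4-fold threshold gave 3 lower in the hatchling (1.33%), 0 higher in the distal comparison (2.64%), 1 higher (4.74%) and 0 lower (1.19%) in the tips and 0 higher (3.46%) and 0 lower (2.44%) between the tips. Sums per gene, which have no such share, gave 1 higher in the distal comparison and 2 higher and 1 lower in the female tip. The causes were not tested beyond what each alternative itself changes.

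Leaving out 1 library gave 4 to 8 lower (9.07% to 14.6% of all models) and 0 higher (7.89% to 8.66%) in the hatchling (median -0.50 to -0.38). The distal comparison had 3 higher (14.7% to 16.2%) and 1 lower (9.44% to 10.2%), with a median of 0.23 to 0.26. The tips had 3 to 8 higher (25.8% to 32.4%) and 2 to 3 lower (7.55% to 10.2%), with a median of 0.27 to 0.62. No paired analysis was possible because each group is 1 library. Without KDM5B, chosen after seeing the data, the eraser to writer ratio was 1.52, 1.12, 1.12, 1.33, 1.41 and 1.66 in the order used above. With members at 0 counts set to their limit of 3 counts, the 4 medians were the same to 2 decimals and 1 higher call between the tips was lost. Depth limited members with few or 0 counts, such as EED.1, and a model of 1000 bases with 0 counts could be at up to 0.397 to 1.33 TPM.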
